A study of Drosophila melanogaster with 4 samples.

Results

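Sxl (Sex-lethal) and ssx (sister of Sex-lethal) are 2 X-linked genes for paralogous RNA-binding proteins, and every deposited interval that carries either gene name was taken. These were 52 of 17175 intervals in all, 45 of Sxl and 7 of ssx. The study applied iCLIP, in which ultraviolet light joins proteins to the RNA they touch and the RNA is recovered with an antibody and sequenced, to SL2 cells, an embryonic Drosophila melanogaster line that is male. A polyclonal rabbit antibody against the Ssx protein was used in 2 libraries (Ssx IP) and rabbit IgG in 2 control libraries (control IgG IP), with no other treatment or allele given in the labels. The labels do not say if the libraries are separate cultures, and the p-values then measure only their spread, which may be technical. SL2 is a single line, and the markers of its sex could not be checked because the tables list enrichment and not RNA levels.

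Sxl protein binds uridine-rich RNA and is the master regulator of female development in Drosophila. In females it maintains its own production by directing the splicing of Sxl transcripts past an exon with stop codons, which male transcripts retain, and it represses translation of msl-2, the limiting subunit of the male dosage compensation complex. Ssx shares the RNA recognition motifs of Sxl, and the study asked which transcripts Ssx contacts in male cells. Those of Sxl and of ssx itself are the part read here.

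The authors deposited 1 table of DESeq2 statistics for each of 4 transcript regions, with a row per interval and no column per library. The tables do not state their direction, and positive log2 fold changes were taken, as is likely, to mean more recovery with the Ssx antibody. The mean of normalized reads in each row rises in steps that could be solved for whole reads in 4 libraries. These libraries have no names and were assigned to no group, and they are called unnamed libraries 1 to 4. Their totals over non-overlapping 3' UTR intervals were 16978, 17025, 4628 and 1752 reads. Coordinates are those of dm6.

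In the authors' deposited tables, 3 of the 29 intervals of both genes with an adjusted p had one under 0.05, all in the 3' UTR at the downstream end of Sxl, with log2 fold changes of 3.33 to 3.40. Over the 4 tables together 4.35% of 3355 intervals with an adjusted p were called higher, and in the 3' UTR table alone 33.2% of 289, so 3 of the 8 Sxl 3' UTR intervals with an adjusted p is near the share of that table. None of the 4 ssx 3' UTR intervals passed, although their fold changes in the authors' deposited table ran from 2.53 to 2.95. No interval of either gene passed in the 5' UTR, CDS or intron table. Fold changes were positive in 50 of the 52 intervals, many of which share reads, and in 64.9% of all 17175 intervals of the authors' deposited tables. The 23 intervals without an adjusted p had a lower mean than any interval of their table with one.

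**Figure D1:**
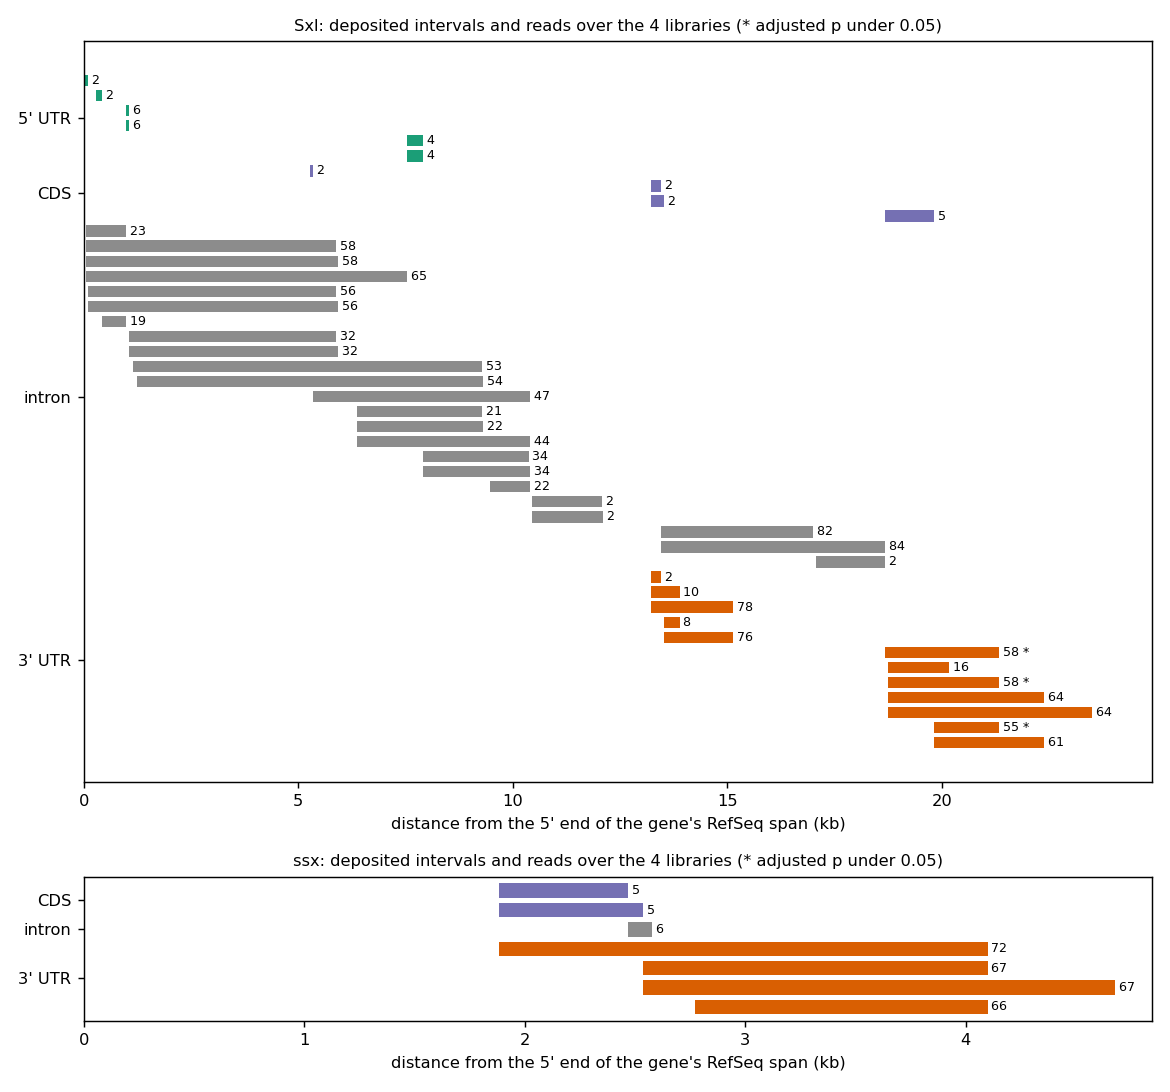
Deposited intervals of Sxl (upper) and ssx (lower) as bars along the gene, in kb from the 5' end of its RefSeq span, coloured by the table that lists them. The number beside each bar is the whole reads over all 4 libraries, and an asterisk marks an adjusted p under 0.05. The 3 marked bars, with 55 to 58 reads, are Sxl 3' UTR intervals at the downstream end of the gene.

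Sxl lies on the minus strand of chromosome X between 7074550 and 7098053 in the RefSeq annotation of Release 6. Its 12 intervals in the 3' UTR table form a downstream group, at the 3' end of the gene, and an internal group that lies largely inside an interval of the intron table. For the downstream interval X:7076710-7079367 the solved reads were 28, 29, 1 and 0 in unnamed libraries 1 to 4. Divided by the size factors of the table these came to 13.4, 17.5, 1.32 and 0 normalized reads. Unnamed libraries 1 and 2 were high, unnamed library 3 held 1 read and unnamed library 4 none. In the authors' deposited table this interval had a log2 fold change of 3.40 with a standard error of 1.40 and a DESeq2 p of 0.0153, adjusted to 0.0458. The interval X:7076710-7079302 held the same reads and the same statistics. The interval X:7076710-7078234, with 25, 29, 1 and 0 reads, had a log2 fold change of 3.33 ± 1.41 (SE) and a DESeq2 adjusted p of 0.0493, per the authors' deposited table. These are the 3 intervals that passed, and they overlap, so they are 1 set of reads rather than 3 observations. Of all 289 intervals of the 3' UTR table with an adjusted p, 33.2% were called higher and 0.692% lower, and the share called higher was 52.0% of 148 X-linked intervals and 13.5% of 141 on other chromosomes. The 3 of 8 of Sxl thus lay below the X-linked share. At an unadjusted DESeq2 p under 0.05 and a positive fold change, 6 of 8 Sxl and 4 of 4 ssx 3' UTR intervals with an adjusted p passed in the authors' deposited table, beside 45.7% of all 289 and 71.6% of the 148 that are X-linked. Over all 4299 listed 3' UTR intervals, most of them of lower mean, that share was 4.35%. The 3 calls rest on the deposited adjustment, since adjusting the DESeq2 p-values of the authors' deposited table over its 289 intervals with an adjusted p gave 0.0513 as the smallest of Sxl. That set holds 86 intervals with a p as small as this one, where the deposited value implies 183, so the higher value follows from intervals not analysed here and does not test the call.

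The remaining downstream intervals differ by where the isoform ends. The 2 that reach farther 3', from X:7075665 or X:7074550 to 7079302, held 28, 34, 2 and 0 reads. Their log2 fold change was, per the authors' deposited table, 2.92 ± 1.30 (SE) with a DESeq2 adjusted p of 0.0595. The interval X:7075665-7078234, with 25, 34, 2 and 0 reads, stood at 2.86 ± 1.31 (SE) and a DESeq2 adjusted p of 0.0674, per the authors' deposited table. The calls of adjacent isoform intervals thus lay on both sides of 0.05 on a difference of 6 reads. Those reads, 0, 5, 1 and 0 by library, fall between X:7075665 and 7076709, and the stretch from X:7074550 to 7075664 added 0.

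Nested intervals located most of the signal. Of the 58 reads of the called interval, 42 fell between X:7076710 and 7077870, which is 36.2 reads per kb. The shorter interval X:7077871-7079302 held the other 16, as 12, 4, 0 and 0 reads, and its log2 fold change of 2.29 ± 1.75 (SE) came without an adjusted p in the authors' deposited table. The upstream stretch X:7078235-7079367, which the CDS table also lists, added 3 reads, all in unnamed library 1. The CDS table counts 5 reads there, so 2 of them also touch the neighbouring 3' UTR.

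The internal 3' UTR of Sxl held more reads than the downstream one and had a smaller fold change. The interval X:7082921-7084819 had 40, 31, 7 and 0 reads, the highest total of the gene in the 3' UTR table. Unnamed library 3 stood clear of 0 here, at 9.21 normalized reads against 19.1 and 18.7 in unnamed libraries 1 and 2. Its log2 fold change was, per the authors' deposited table, 1.70 ± 1.15 (SE) with a DESeq2 adjusted p of 0.251. The slightly shorter X:7082921-7084527, with 39, 31, 6 and 0 reads, had 1.86 ± 1.16 (SE) and a DESeq2 adjusted p of 0.201, per the authors' deposited table. Within it, 68 of the 76 reads lay between X:7082921 and 7084163, at 54.7 reads per kb. The short intervals at its upstream end held 2 to 10 reads, and their log2 fold changes in the authors' deposited table ran from -0.56 to 0.75 with no adjusted p.

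The difference in log2 fold change between the downstream and the internal 3' UTR interval was 1.70 with a standard error of 1.81, computed from the authors' deposited table with the errors taken as independent. The 95% interval of that difference, -1.85 to 5.24, holds 0, so a difference between these intervals was not resolved. Over all 165 pairs of distinct intervals of Sxl and ssx within a table that do not overlap, 0 had a 95% interval that left out 0. Many of these pairs hold few reads or reuse the reads of nested intervals. The Sxl CDS intervals X:7078235-7079367 and X:7084528-7084819, for example, differed by 1.02 with a standard error of 1.95. The count therefore does not show that the intervals are alike.

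**Figure D2:**
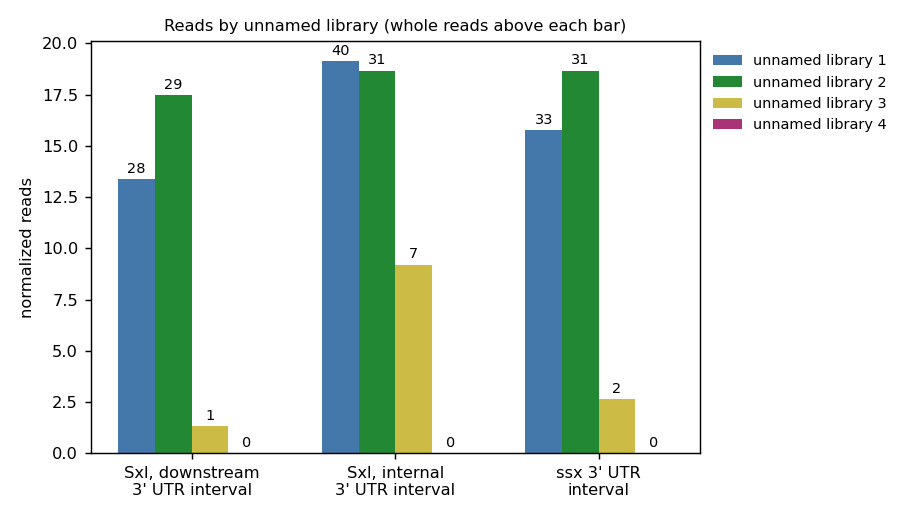
Normalized reads (bars, from 0) and whole reads (numbers) in each of the 4 unnamed libraries for the Sxl downstream, Sxl internal and ssx 3' UTR intervals. Unnamed libraries 1 and 2 hold 28 to 40 reads in each interval, unnamed library 3 holds 1 to 7, and unnamed library 4 holds 0.

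The ssx gene lies on the plus strand of chromosome X between 1370580 and 1375257. Its 4 intervals in the 3' UTR table end at X:1374677 or 1375257 and differ in where they start. X:1373352-1374677 held 33, 31, 2 and 0 reads, or 15.8, 18.7, 2.63 and 0 normalized reads. As in the Sxl downstream interval, unnamed libraries 1 and 2 were high. The authors' deposited table gave it a log2 fold change of 2.95 ± 1.29 (SE), a DESeq2 p of 0.0223 and an adjusted p of 0.0560, just outside the threshold. X:1372461-1374677, which starts in coding sequence, held 38, 31, 3 and 0 reads and had 2.62 ± 1.23 (SE) with a DESeq2 adjusted p of 0.0728, per the authors' deposited table. The 2 intervals from X:1373116 held 33, 31, 3 and 0 reads and had 2.53 ± 1.24 (SE) with a DESeq2 adjusted p of 0.0901, per the authors' deposited table.

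All but 1 of the 67 reads from X:1373116 onward lay in X:1373352-1374677, at 49.8 reads per kb. The last 580 bases, X:1374678-1375257, added 0 reads. A single read of unnamed library 3 in the 236 bases from X:1373116 to 1373351 separates the fold changes of 2.95 and 2.53 in the authors' deposited table. The precursor gene of the microRNA mir-4961 lies inside the ssx 3' UTR in the RefSeq annotation, at X:1373623-1373755, and has no row of its own. The Sxl downstream and the ssx 3' UTR interval differed by 0.45 in log2 fold change with a standard error of 1.90, computed from the authors' deposited table, and the 95% interval ran from -3.28 to 4.18. A difference between the genes was not resolved, and one of several log2 units in either direction remains within that interval.

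Depth limits what the sparse libraries can show. The Sxl downstream interval took 0.165% of the 3' UTR reads of unnamed library 1 (exact Clopper-Pearson 95% interval 0.110 to 0.238) and 0.170% of those of unnamed library 2 (0.114 to 0.245). In unnamed library 3 its share was 0.0216% (0.000547 to 0.120). In unnamed library 4 it was 0 of 1752 reads, which allows a share of up to 0.171% by the limit of 3 counts and of 0.210% by the exact interval. The share of unnamed library 1 lies under both limits and was not detectable as different there. The ssx interval took 0.194%, 0.182% and 0.0432% in unnamed libraries 1 to 3, with an interval of 0.00523 to 0.156 for the third. The internal Sxl interval took 0.236%, 0.182% and 0.151%, and its interval in unnamed library 3, 0.0608 to 0.311, overlaps those of unnamed libraries 1 and 2. These intervals cover counting error only.

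**Figure D3:**
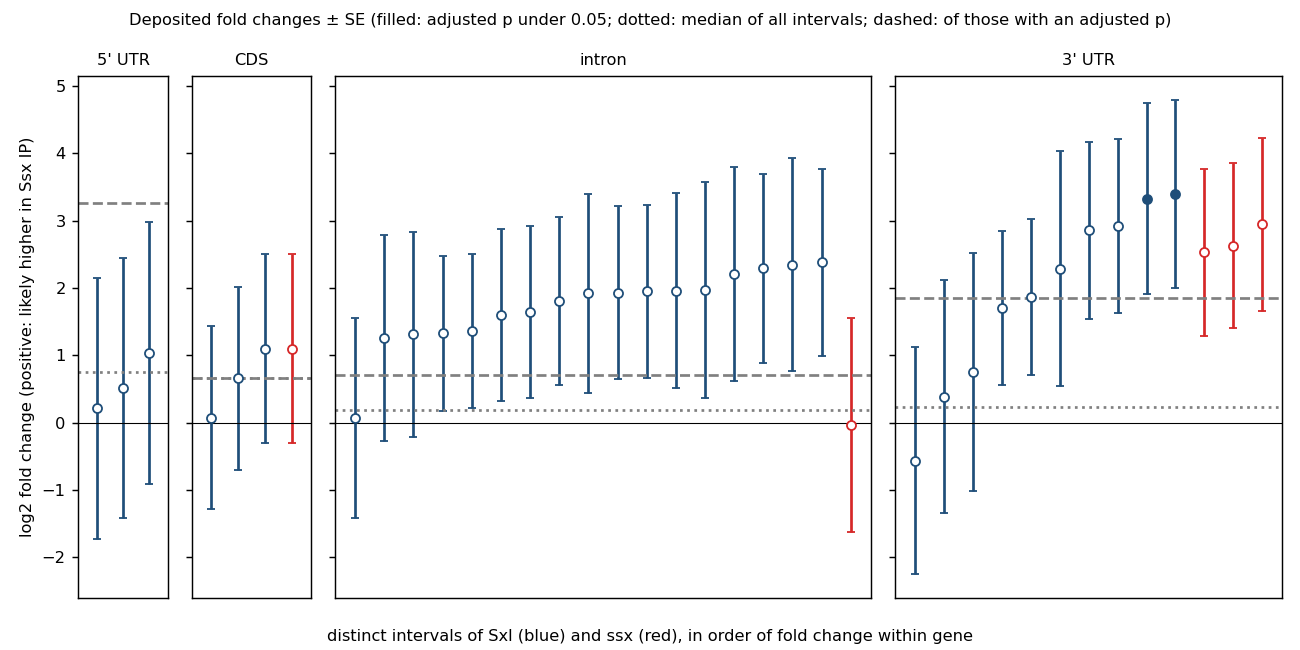
Deposited log2 fold change (points, with SE bars) of each distinct interval of Sxl (blue) and ssx (red) in the 4 tables, ordered within gene. Dotted and dashed lines are the medians of all intervals and of those with an adjusted p (0.23 and 1.85 in the 3' UTR table), and filled points, which are Sxl 3' UTR intervals, have an adjusted p under 0.05.

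Sxl introns were read because the regulated splicing of the gene takes place there. All 23 Sxl intron intervals had a positive log2 fold change, with a median of 1.80, in the authors' deposited table, and 0 of the 11 with an adjusted p passed. Of all 1023 intron intervals with an adjusted p, 3.62% were called higher and 5.57% lower. Per the authors' deposited table, these 1023 had a median log2 fold change of 0.71, and all 8796 listed intron intervals had one of 0.18. The Sxl median of 1.80 includes intervals without an adjusted p, so neither value is a matched base for it. At an unadjusted DESeq2 p under 0.05 the count for Sxl introns was also 0. The share of all intron intervals under that threshold was not computed, so this count has nothing to be set against. Many of the 23 intervals are alternative spans over the same bases and share reads, so their common sign is not 23 observations.

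The interval X:7087660-7092696 had the smallest p of these. It held 17, 29, 0 and 1 reads, and the authors' deposited table gave a log2 fold change of 2.38 ± 1.39 (SE) with a DESeq2 p of 0.0869, adjusted to 0.268. Its downstream end, X:7087660-7088577, was the densest of the listed stretches inside it, with 22 reads at 24.0 per kb, 18 of them in unnamed library 2. The log2 fold change of that stretch in the authors' deposited table was 2.35 ± 1.58 (SE), without an adjusted p. The rest of the interval, X:7088578-7092696, held 25 reads at 6.07 per kb.

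Near the 5' end of the gene, X:7090505-7098000 held 39, 23, 3 and 0 reads and had a log2 fold change of 1.80 ± 1.25 (SE) with a DESeq2 adjusted p of 0.356, per the authors' deposited table. Of its 65 reads, 23 lay in the 941 bases nearest the 5' end, X:7097060-7098000, as 17, 6, 0 and 0 by library. The densest intron interval of Sxl was inside that stretch, X:7097060-7097623, with 33.7 reads per kb and a log2 fold change of 1.97 ± 1.60 (SE) in the authors' deposited table.

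The intron interval with the most reads, X:7079368-7084598, spans the bases of the internal 3' UTR. It held 45, 33, 6 and 0 reads, and the 3' UTR interval X:7082921-7084527 inside it held 39, 31, 6 and 0. Its log2 fold change was, per the authors' deposited table, 1.36 ± 1.14 (SE) with a DESeq2 adjusted p of 0.474. The intron X:7079368-7080988, at its downstream end, held 2 reads. The intron X:7085955-7087613 also held 2 reads, at 1.21 per kb, against 24.0 per kb in the stretch that begins at X:7087660.

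The ssx gene had a single row in the intron table, X:1373048-1373157, with 5, 0, 1 and 0 reads and a log2 fold change of -0.03 ± 1.59 (SE) in the authors' deposited table. It overlaps the CDS and 3' UTR intervals of the gene, and its reads may be the same ones.

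Coding sequence and 5' UTRs of both genes carried few reads, as did those of other genes. The median over all listed intervals was 3 reads in the CDS table and 3 in the 5' UTR table. The CDS table called 0.0% of its 1921 intervals higher, and the 4 Sxl and 2 ssx CDS intervals held 2 to 5 reads each. Sxl X:7078235-7079367 and ssx X:1372461-1373115 each held 5, 0, 0 and 0 reads and share a log2 fold change of 1.10 ± 1.41 (SE), with a DESeq2 adjusted p of 0.855, per the authors' deposited table. The 5' UTR table called 10.7% of its 122 intervals with an adjusted p higher, and none of the 6 Sxl intervals had an adjusted p. X:7090142-7090504 had the largest 5' UTR log2 fold change of Sxl, 1.03 ± 1.94 (SE) in the authors' deposited table, on 3, 1, 0 and 0 reads. X:7096998-7097059 held 1, 3, 2 and 0 reads, of which 3 were also counted in flanking introns, and stood at 0.21 ± 1.94 (SE) in the authors' deposited table. No 5' UTR interval of ssx was listed.

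No row of another gene overlapped Sxl or ssx on either strand. The RefSeq genes inside the Sxl span, mir-4956 and lncRNA:CR46494, have no row in any table. Among the genes next to them, CG4615, beyond the 5' end of Sxl, has a single 3' UTR row with 3 reads and a log2 fold change of 0.45 ± 1.69 (SE) in the authors' deposited table.

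The 3' UTR intervals of both genes were then placed among intervals of the same table. In order of log2 fold change in the authors' deposited table, the Sxl downstream interval ranked 51st of 289 with an adjusted p and 38th of the 148 that are X-linked. The best ssx interval ranked 76th, and the internal Sxl intervals 144th and 149th. With the opposite sign the Sxl downstream interval would rank 238th of 289 and 110th of 148, and the best ssx interval 214th of 289. Next above the Sxl interval was Hsc70-3, an endoplasmic reticulum chaperone, with 3.40 ± 0.72 (SE) and a DESeq2 adjusted p of 0.000151 on 528 reads in the authors' deposited table. Next below was Klp10A, a microtubule-depolymerizing kinesin, with 3.36 ± 1.23 (SE) and a DESeq2 adjusted p of 0.0221 on 87 reads in the authors' deposited table. The fold of Hsc70-3 was like that of Sxl and rested on 528 reads where Sxl had 58. Deposited fold changes also differ with read count. In the authors' deposited 3' UTR table, 2, 2, 0 and 0 reads gave 0.67 for da, and 21, 23, 0 and 0 gave 3.95 for msl-2. Ranks by fold change thus set intervals of unlike read count side by side, and the likeness of Hsc70-3 and Sxl was not tested. Next above the ssx interval was Galphaq, a G protein subunit, at 2.95 ± 1.06 (SE), and next below was beta-Spec, a spectrin, at 2.94 ± 1.24 (SE), both in the authors' deposited table.

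Intervals with a like mean were set beside the members, the larger mean being no more than 25% above the smaller. This window was chosen after values were seen. Of 85 such intervals around the Sxl downstream one, 14 were called higher, which is 16.5%, with a median log2 fold change of 1.08 per the authors' deposited table. Of 112 around the ssx interval, 20 were called higher, which is 17.9%. With a window of 20% the counts were 10 of 71 and 17 of 89, or 14.1% and 19.1%. Among the X-linked intervals of the 25% windows, 8 of 32 around Sxl and 14 of 48 around ssx were called.

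**Figure D4:**
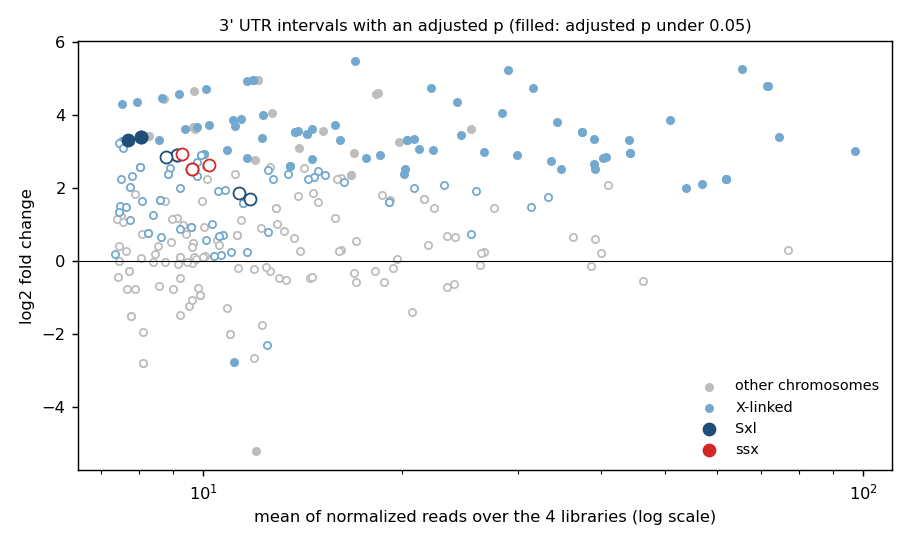
Log2 fold change against the mean of normalized reads (log axis) for the 289 3' UTR intervals with an adjusted p, by chromosome, with Sxl and ssx enlarged. Filled points have an adjusted p under 0.05. Sxl and ssx have means of 7.69 to 11.8, and their log2 fold changes of 1.70 to 3.40 fall inside the range of X-linked intervals.

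Genes of sex determination and dosage compensation were read from a list of 54 names, Sxl and ssx included. They stand for 51 genes, of which 32 have a row in any table. The 3' UTR table listed 23 of them, 5 had an adjusted p, and 1, Sxl, was called higher, beside 36.5% of the 178 genes with an adjusted p. No gene of the list was called lower there, beside 1.12% of those genes. Among 5' UTR, CDS and intron intervals, 12, 12 and 24 of the genes were listed, 2, 12 and 3 had an adjusted p, and 0 were called in either direction. The corresponding shares of all genes were 11.0%, 0.0% and 4.73% called higher and 0.0%, 0.0% and 6.9% called lower. The median log2 fold change of the list in the 3' UTR table, over the interval with the smallest p of each gene, was 0.88 against 0.23 over all genes of the authors' deposited table. It was 1.35 against 0.74 in the 5' UTR table, 0.68 against 0.66 in the CDS table and 0.58 against 0.13 in the intron table, all from the authors' deposited tables. The list was not matched to all genes for mean, and 0.23 is the value of a 3' UTR interval with 2 reads in a single library. The median of that table was 0.23 over all intervals and 1.85 over those with an adjusted p.

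Of the subunits of the dosage compensation complex, msl-2, msl-3, mof and msl-1 were among the list genes with the smallest p in the 3' UTR table, and none of them was called. Of the intervals given here for them, only that of mof had an adjusted p, so the others could not be called. The 3' UTR of msl-2 held 21, 23, 0 and 0 reads and had a log2 fold change of 3.95 ± 1.56 (SE) with a DESeq2 p of 0.0111, per the authors' deposited table, which gives it no adjusted p. The 3' UTR of msl-3, a chromodomain subunit, held 11, 27, 0 and 0 reads and had 3.76 ± 1.59 (SE) with a DESeq2 p of 0.0177 and no adjusted p in the authors' deposited table. These intervals held fewer reads than the called Sxl interval, and the errors of all 3 folds overlap. For mof, the histone acetyltransferase of the complex, 19, 37, 3 and 0 reads gave 2.39 ± 1.28 (SE) and a DESeq2 adjusted p of 0.129, per the authors' deposited table. For msl-1, the scaffold subunit, 14, 20, 1 and 0 reads gave 2.69 ± 1.51 (SE) in the authors' deposited table. N, the Notch receptor, had 2.51 ± 1.73 (SE) on 17 reads and no adjusted p in the authors' deposited table.

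In introns the smallest p of the list belonged to dsx, the terminal switch of somatic sex. Its intron held 2, 3, 6 and 3 reads, with a log2 fold change of -2.36 ± 1.31 (SE) and a DESeq2 p of 0.0716 per the authors' deposited table. All 4 unnamed libraries held reads there, as in the Sxl intron interval X:7088750-7096814, with 29, 23, 1 and 1 reads. No Sxl intron interval had more reads in unnamed library 3 than the 6 of dsx. In unnamed library 4 none had over 1, where dsx had 3. Hrb27C, an RNA-binding protein, stood at 2.25 ± 1.59 (SE), Stat92E, a transcription factor, at 2.01 ± 1.44 (SE), and fru, a gene for sex-specific neural transcription factors, at 2.00 ± 1.60 (SE) in the authors' deposited table. For Hrb27C the 3' UTR interval with the smallest p held more reads, 135. It had 0.68 ± 0.82 (SE) and a DESeq2 adjusted p of 0.593, per the authors' deposited table. The noncoding RNA roX2 of the dosage compensation complex had 1.93 ± 1.60 (SE) in the authors' deposited table. None of these intron values of the list other than those of Sxl came with an adjusted p.

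In the 5' UTR table msl-2 again had the smallest p of the list, with 5, 11, 0 and 0 reads and a log2 fold change of 3.21 ± 1.85 (SE) in the authors' deposited table. It was followed by snf, a spliceosomal protein that takes part in Sxl splicing, at 2.93 ± 1.89 (SE), and U2af50, a splice site recognition factor, at 2.50 ± 1.93 (SE) in the authors' deposited table. Hrb27C at 2.07 ± 1.96 (SE), N at 1.93 ± 1.95 (SE) and Stat92E at 1.67 ± 1.98 (SE) followed in the authors' deposited table. All 27 reads of the N interval lay in unnamed library 1. In the CDS table the list genes had 2 to 5 reads each, and mof at 1.12 ± 1.44 (SE), N and msl-1, both at 1.06 ± 1.40 (SE), had the smallest p after Sxl and ssx in the authors' deposited table. Unr, a partner of Sxl in msl-2 repression, and Stat92E stood at -0.97 ± 1.36 (SE) on 2 reads in the same authors' deposited table.

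Genes were last ranked by how like their pattern over the tables was to that of Sxl and ssx, by the Euclidean distance between deposited test statistics over the interval with the highest mean. For the 3' UTR of Sxl that is the internal interval X:7082921-7084819, which was not called, and not the downstream one. Over 4 tables and 316 genes, sd, a transcription factor, was nearest to Sxl at a distance of 0.460, then Arp2, an actin nucleator subunit, at 0.513 and Drak, a kinase, at 0.590. Over 3 tables and 525 genes, the nearest to ssx were 4EHP, a cap-binding protein, at 0.0338, egh, a glycosyltransferase, at 0.182 and Tis11, an RNA-binding protein, at 0.318. The CDS and intron intervals of ssx held only 5 and 6 reads. 4EHP had the same CDS log2 fold change, 1.10 in the authors' deposited table, so small distances to ssx rest in part on rows of few reads. Sxl itself ranked 59th for likeness to ssx. With log2 fold changes in place of test statistics the nearest genes were mbl, pyd and CkIIbeta for Sxl and CG32638, N and Dsp1 for ssx, sharing 0 genes with the first ranking.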

How the data were processed

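iCLIP libraries of SL2 cells, 2 Ssx IP and 2 control IgG IP, were compared by the authors, who deposited 1 table each for 5' UTR, CDS, intron and 3' UTR intervals. Per the submitters' processing notes the builds were BDGP6 and dm6 and the tools DESeq2 1.14.1, DESeq, cutadapt 1.6 and Bowtie 0.12.7. How reads were counted, deduplicated, stranded and annotated is not given in the sources used here. Per the file headers, the deposited mean is a signal, the mean of normalized reads, the fold change and its standard error are on the log2 scale, and the test statistic is a score. The deposited p-values and their adjusted forms were not recomputed for the main results, and a call is an adjusted p under 0.05. The planned count models were not run, since no column holds a library, and values from the tables carry no SD or n.

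Whole reads were solved from the means within a relative tolerance of 1e-14, a step tested on simulated data. The simulated intervals had low means and were given the low-read rows from which the step starts. The test therefore does not cover the larger deposited means or tables that lack such rows. The solution was unique for all intervals but 1 of the intron table. That interval was given the nearest solution and was left out of the library totals only. Libraries were matched by shared intervals for CDS and 3' UTR (14 of 14 pairs) and for 5' UTR and CDS (9 of 9). The intron table was matched through 3' UTR intervals that lie inside an intron. In the chosen order no library had fewer reads in the intron, in 588 of 588 pairs against 399 for the next order. Libraries were never assigned to a sample or tested. Differences between intervals took the deposited errors as independent, which they are not where reads or libraries are shared. No genome was used here, so no sequence or uridine-tract count is given.

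The members and lists were chosen with earlier results of these data known. Named genes are Sxl, ssx, called list members, up to 6 other list members with the smallest p in each table, the 3 genes of most like pattern and the neighbours in fold change. Work used Python 3.11.15 with pandas 2.3.3 and scipy 1.17.1. Alternatives were other Benjamini-Hochberg adjustments, the opposite sign and another measure of likeness.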

Additional observations from a re-analysis of the deposited data

How the results depend on the processing

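The 3 calls of Sxl rest on the deposited adjustment. The deposited adjusted p-values of the 3' UTR table correspond to 550 intervals, and 289 are listed with one. For the smallest p of Sxl they imply 183 intervals with a p as small, and 86 are listed, so adjusting again runs on fewer such intervals by construction and does not test the call. The number of Sxl 3' UTR intervals called, and of list genes called, was 0 with Benjamini-Hochberg adjustment over the listed intervals with an adjusted p, over all listed intervals of the table, over the 4 tables together, and with rows of identical values kept once. With the DESeq2 p-values of the authors' deposited table, the smallest adjusted p of Sxl was then 0.0513, 0.690, 0.905 and 0.0514, and that of X:7076710-7078234 was 0.0542, 0.705, 0.948 and 0.0554. Adjusting over all listed intervals adds those of low mean. With the opposite sign of the fold change both counts of calls higher in the Ssx IP were 0, since the 3 intervals would then be lower. The ssx 3' UTR, intron, 5' UTR and CDS counts were 0 throughout. The ranking of like genes shared 0 of 3 genes for Sxl and for ssx when log2 fold changes replaced test statistics. No paired analysis was possible because the columns carry no library. For the same reason leaving out each library, edgeR, TMM and a count filter were not run, and the uridine-tract alternatives were not run without a genome. With 1752 reads in unnamed library 4, a share under 0.171% (limit of 3 counts) or 0.210% (exact) could be missed there.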
